A study of Penaeus merguiensis with 6 samples.

Results

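Of 57303 assembled genes measured in the hepatopancreas of the banana shrimp Penaeus (Fenneropenaeus) merguiensis, 56 stood at least 2 times higher in every cadmium library than in any control library. The genes were chosen by these values: above 0 in all 6 libraries, a mean over the 6 of at least 5 and below 1000 FPKM, and the lowest cadmium value at least 2 times the highest control value. FPKM counts the fragments sequenced from a gene, divided by its length and by the total of mapped fragments in that library. Of the table's genes, 7734 were above 0 in all 6 libraries with a mean in that range, and the 56 were drawn from them. Because the comparison of cadmium with control chose the genes, their differences between the groups are a description and not a test.

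The crustacean hepatopancreas secretes digestive enzymes, absorbs and stores nutrients, and takes up and holds metals. Cadmium is a non-essential metal that binds thiol groups and competes with zinc and calcium at their binding sites. Animal cells exposed to it commonly make more metallothioneins, small cysteine-rich proteins that bind metal ions, more heat shock proteins, which refold or hold damaged proteins, and more enzymes of glutathione metabolism. Whether any of the 56 genes codes for such a protein is not known here, since the gene IDs are not paired with names or sequences in the sources used, and no sequence could be shown. The genes are therefore described by their level, their pattern over the libraries and their place in the assembly.

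The study asked how a cadmium concentration lethal to part of the animals alters the hepatopancreas. The cadmium group was 3 libraries from healthy reared shrimp exposed to cadmium chloride at 0.5 mg/L for 72 hours, and the control group was 3 libraries from shrimp at 0 mg/L sampled at the same time. The study held 3 replicate lots of shrimp at each concentration, but the labels only number the libraries 1 to 3 and give no strain, age, lot or number of animals for each, so the spread between libraries may be partly technical. Total RNA was taken from whole hepatopancreas, in which more cells of a type and more RNA per cell cannot be told apart. Markers of the tissue could not be checked without gene names.

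The number of fragments per library is not given. Summed over all genes, FPKM was lowest in cadmium 1, at 1702598, and highest in control 2, at 2003399. The FPKM of a typical gene was higher with cadmium as deposited, with a median ratio of group means of 1.09 over the 7734 genes. When the libraries were brought to a common upper quartile or by median-of-ratios factors, 39 genes met the rule, all of them among the 56. Genes of few fragments were those whose 6 values were all whole multiples of the worth of 1 fragment, within 1.5%. With at most 20 fragments in all, there were 0 among the 56 and 44 among the 7734 (0.569%). The gap between the groups fixes much of this 0. With at least 1 fragment in the lowest library, the values of a gene imply a smallest total of fragments. Over the 56 that total was about 10.5 or more, with a median of 40.4, so most could not meet the limit of 20.

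The 56 genes made up 0.724% of the 7734. The rule turned round, every control library at least 2 times every cadmium library, was met by 14 genes, 0.181%. Applied with the libraries regrouped, 3 against 3 with both groups mixed, the rule gave 0 to 37 genes in 18 such counts, with a median of 7. The count of 37 belonged to control 3, cadmium 1 and cadmium 3 standing together, and the next was 17. After either scaling the numbers were 39 higher, 17 lower and at most 30 in a mixed grouping. These counts share libraries and carry no p-value.

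**Figure D1:**
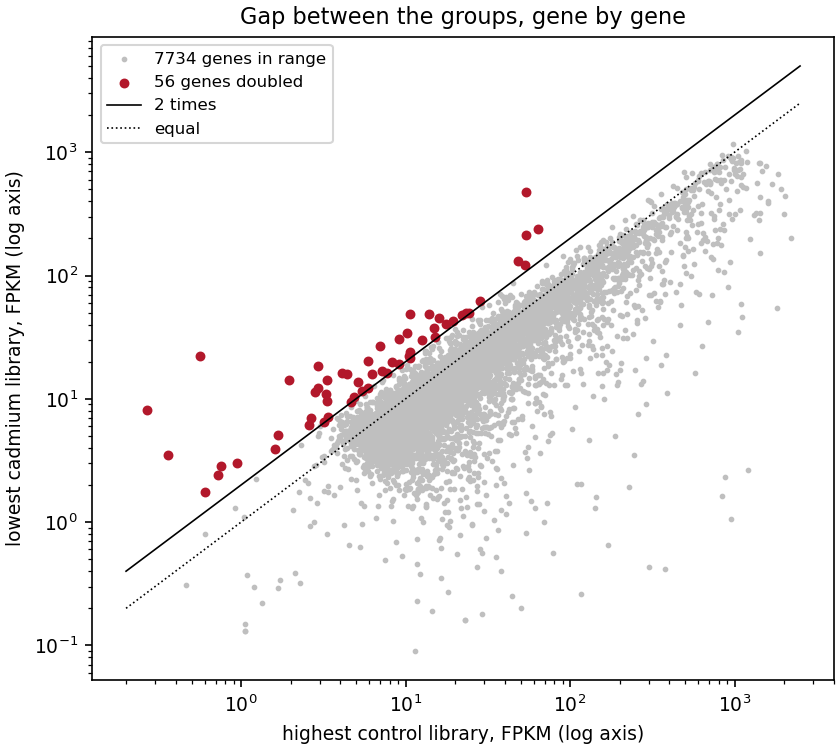
Each point is a gene above 0 in all 6 libraries with a mean of 5 to below 1000 FPKM, placed by its highest control library and its lowest cadmium library, both in FPKM on log axes. The 56 genes (red) lie on or above the line of 2 times, and the 3 farthest above it have controls under 1 FPKM.

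Most of the 56 were genes of modest level. By mean over the 6 libraries, 12 lay between 5 and 10 FPKM, 18 between 10 and 20, 17 between 20 and 50, 2 between 50 and 100 and 7 at 100 or more. Of the 7734 genes, 2827, 2062, 1549, 624 and 672 lay in the same ranges. The median of the 56 was 17.1 FPKM and the highest 471 FPKM. In controls the median over the 56 genes was 3.49, 4.3 and 5.56 FPKM in libraries 1 to 3, and with cadmium they were 36.2, 23.9 and 25.8 FPKM. Over the 7734 genes the corresponding medians were 12.5, 11.4 and 13.4 FPKM in controls and 14.995, 13.96 and 13.56 FPKM with cadmium.

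Added together, the 56 genes gave 409, 506 and 478 FPKM in the controls, or 0.023%, 0.0253% and 0.0279% of all FPKM. With cadmium they gave 6987, 2983 and 2934 FPKM, or 0.41%, 0.166% and 0.165%. Cadmium 1 thus held the largest sum of the 3 cadmium libraries, and cadmium 2 and cadmium 3 were close to each other. A few genes weigh heavily in these sums: the 2 most abundant made up 33.6%, 23.1% and 28.4% of them in cadmium 1, 2 and 3. The lowest cadmium value was 2.02 to 40.04 times the highest control value, with a median of 2.67. That gap was below 2.5 in 24 genes, 2.5 to 3 in 8, 3 to 4 in 14, 4 to 5 in 4 and 5 or more in 6. The ratio of group means was 2.27 to 583, with a median of 6.53.

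TR694_c0_g1 had the widest gap between the groups. It was nearly silent in the controls, at 0.11, 0.52 and 0.56 FPKM, and read 22.4, 46.4 and 32.3 FPKM with cadmium. The groups stood at 0.397 ± 0.249 (SD, n = 3) and 33.7 ± 12.1 FPKM (SD, n = 3), a ratio of 85.0, and the lowest cadmium library was 40.04 times the highest control. Another gene of the same assembly component was a common transcript in both groups, at 53.6 FPKM in controls and 79.7 FPKM with cadmium, and its groups overlapped.

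TR101_c0_g1 had the second widest gap, 29.8 times. It read 0.07, 0.27 and 0.23 FPKM in the controls and 309.8, 14.5 and 8.04 FPKM with cadmium. The cadmium libraries differed 38.5-fold among themselves, with cadmium 1 far above the other pair. The ratio of means, 583, therefore rests on cadmium 1 and on control values near the 2 decimals of the table, and without cadmium 1 it was 59.4. The gene with the third widest gap, 9.67 times, had the same shape, with 0.03, 0.36 and 0.28 FPKM in controls and 118.3, 3.74 and 3.48 FPKM with cadmium.

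Among the most abundant of the 56, the first read 15.6, 54.1 and 15.2 FPKM in the controls and 1669.8, 473.9 and 597.9 FPKM with cadmium. Its ratio of means was 32.3, and control 2 and cadmium 1 were the high libraries of their groups. The second most abundant read 15.9, 54.1 and 18.9 FPKM in the controls and 677.4, 214.9 and 235.8 FPKM with cadmium, a ratio of 12.7. These genes have different TR numbers in the assembly and had the same high libraries. The first stood at 0.986, 1.00 and 0.803 times the second in the controls and at 2.47, 2.21 and 2.54 times it with cadmium, so that their FPKM were alike in controls and apart in all 3 cadmium libraries.

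The third most abundant gene read 0.46, 0.14 and 1.97 FPKM in the controls and 888.9, 60.3 and 14.3 FPKM with cadmium, a range of 62.2-fold within the cadmium group. The fourth read 16.6, 27.0 and 48.5 FPKM in controls and 131.3, 425.7 and 289.4 FPKM with cadmium. Here cadmium 1 was the lowest of its group, the reverse of the first 3 genes. The fifth read 63.7, 17.0 and 32.5 FPKM in controls and 237.7, 244.6 and 273.3 FPKM with cadmium. Its cadmium libraries lay within 1.15-fold of each other, while its controls spread 3.74-fold.

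**Figure D2:**
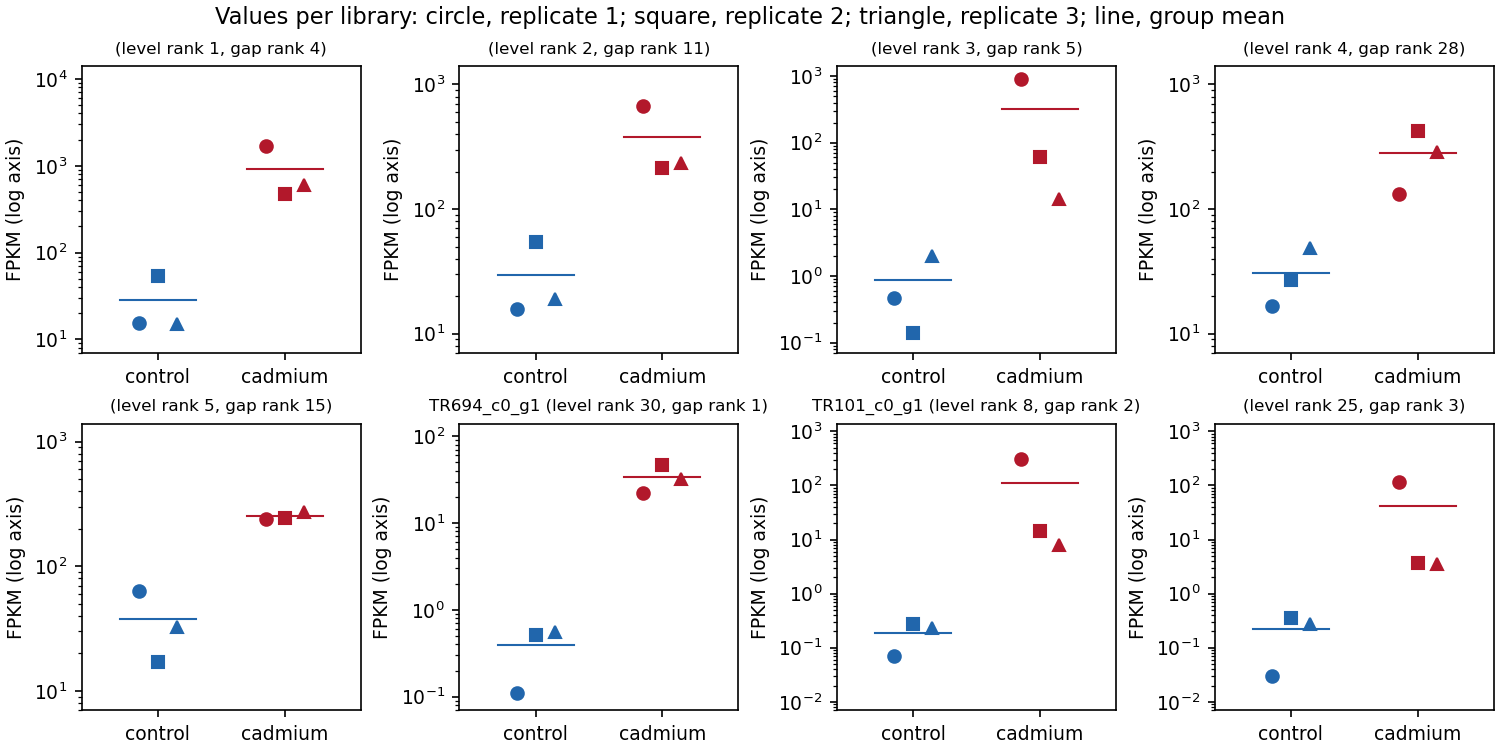
FPKM per library on log axes for the 5 most abundant of the 56 genes and the 3 others with the widest gap, with the group mean as a line; titles give the rank by mean FPKM and by gap. Cadmium 1 (circle) is far above the other cadmium libraries in TR101_c0_g1 and lowest of them in TR694_c0_g1, and no group of 3 overlaps the other.

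The 56 genes differed among themselves in how the 3 cadmium libraries stood to each other. A division into 4 sets was made after the values were seen and carries no test. In 11 genes cadmium 1 was at least 3 times both cadmium 2 and cadmium 3, in 14 the cadmium libraries lay within 1.5-fold of each other, and in 8 cadmium 1 was at most 0.5 times the highest of them. The remaining 23 lay between these.

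In the 11 genes high in cadmium 1, that library read 24.3 to 889 FPKM, with a median of 118 FPKM. Cadmium 2 read 2.43 to 62.6 FPKM, with a median of 6.37, and cadmium 3 read 1.77 to 49.8 FPKM, with a median of 5.7. Cadmium 2 was above cadmium 3 in 9 of the 11. Of the 7734 genes, 103 had cadmium 1 at least 3 times both others, the 11 included, and cadmium 2 was above cadmium 3 in 43 of them. Their controls lay between 0.03 and 24.3 FPKM, and in 6 of the 11 every control was below 1 FPKM, which was so in 1 of the other 45. The choice of genes bears on this: all 6 reached the mean of 5 FPKM only through cadmium 1, with means over the other 5 libraries of 1.43 to 4.63 FPKM, and so did 1 more of the 11. Without cadmium 1 the ratio of means of the 11 was still 2.89 to 59.4, as the rule requires of each library, with a median of 6.75.

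The same shape was seen at other levels. The gene sixth in level read 19.5, 14.7 and 24.3 FPKM in controls and 599.5, 62.6 and 49.8 FPKM with cadmium. The ninth read 2.96, 0.91 and 4.39 FPKM in controls and 239.6, 40.1 and 16 FPKM with cadmium. A gene lower in level, the 36th, read 1.56, 1.6 and 1.54 FPKM in controls and 63.9, 3.95 and 5.7 FPKM with cadmium. In all of these cadmium 1 stood alone, and cadmium 2 and cadmium 3 were nearer to the controls than to cadmium 1 in FPKM.

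Cadmium 1 also stood alone in genes outside the 56. Among the 7734, it was at least 3 times both other cadmium libraries in 103 genes, which include the 11. In the 92 that are not among the 56, cadmium 2 and cadmium 3 were both above every control in 21 (22.8%), against 16.9% of all 7678 genes outside the 56. Genes picked in the same way for cadmium 2 numbered 52, and in 0 of them were both other cadmium libraries above every control, against 17.7% of the 7678. For cadmium 3 there were 111 such genes, with both others above every control in 6 (5.41%), against 26.9%. Picking genes by 1 library at least 3 times both others can favour genes low in those others. A picked gene can also reach the mean of 5 FPKM through that library alone. The picked genes thus differ from the 7678 by how they were chosen. These shares are over genes of single libraries and were not tested.

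**Figure D3:**
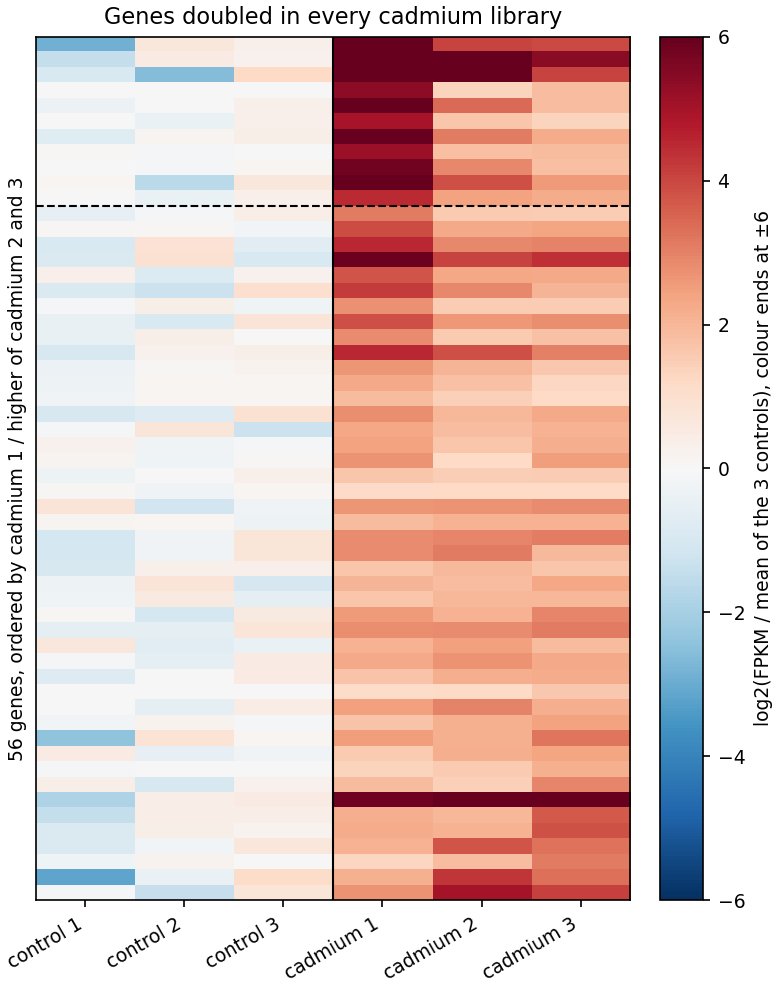
Rows are the 56 genes, ordered by cadmium 1 over the higher of cadmium 2 and cadmium 3, and columns the 6 libraries; colour is log2 of FPKM over the mean of the controls, ending at 6 in either direction. The 11 genes above the dashed line are at least 3 times higher in cadmium 1 than in both other cadmium libraries, and TR694_c0_g1 is the row near the bottom that is dark in all 3 cadmium columns.

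**Figure D4:**
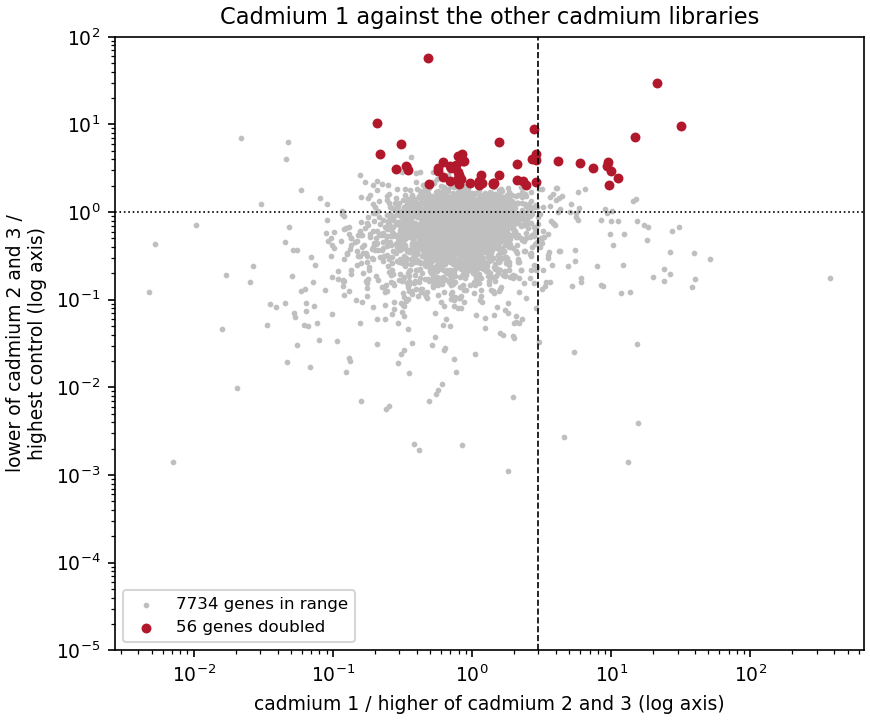
Each point is a gene, with cadmium 1 over the higher of cadmium 2 and cadmium 3 on the x axis and the lower of cadmium 2 and cadmium 3 over the highest control on the y axis, both on log axes. The 103 genes right of the dashed line (at 3) hold 11 of the 56 (red), and 21 of the other 92 lie above the dotted line at 1.

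In the 14 genes with even cadmium libraries the ratio of means was 2.27 to 7.70, with a median of 4.20, and in the 11 genes high in cadmium 1 it was 10.8 to 583, with a median of 32.2. The way the sets were divided fixes much of that contrast, and without cadmium 1 the medians were 4.28 and 6.75. The most even of them read 8.96, 7.48 and 9.15 FPKM in controls and 19.1, 19.6 and 19.4 FPKM with cadmium. It had the smallest ratio of means of the 56, 2.27, with cadmium libraries within 1.03-fold of each other. Another, with the largest ratio of this set, 7.70, read 0.96, 1.72 and 3.35 FPKM in controls and 14.2, 15.5 and 16.7 FPKM with cadmium. No gene of this set had all its controls below 1 FPKM (0 of 14).

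In the 8 genes low in cadmium 1 that library was still above every control, as the rule requires. TR694_c0_g1 was one of them. Cadmium 2 was the highest library in 4 of the 8 and cadmium 3 in the other 4. The gene 23rd in level read 2.4, 0.96 and 4.12 FPKM in controls and 16.3, 78.5 and 43.3 FPKM with cadmium, so that cadmium 2 was highest. The gene 38th in level read 3.5, 4.83 and 4.31 FPKM in controls and 10.4, 15.1 and 36.3 FPKM with cadmium, and here cadmium 3 was highest. Over the 8 genes the median ratio of means was 8.48, and 10.5 without cadmium 1. The remaining 23 genes had ratios of 2.91 to 32.3, with a median of 5.19.

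The rule treats the libraries of a group alike, so their order within a group was free to vary. Cadmium 1 was the highest cadmium library in 29 of the 56 genes (51.8%), against 45.1% of the 7734. It was at least 3 times both others in 19.6% of the 56 and in 1.33% of the 7734, a share to which the 7 genes that reached the mean of 5 FPKM only through cadmium 1 contribute. Cadmium 2 and cadmium 3 were so in 0 of the 56 each, and in 0.672% and 1.44% of the 7734, shares too small for 56 genes to show a difference. Among the controls, control 3 was highest in 28, control 2 in 18 and control 1 in 10 of the 56, against 42.6%, 20.5% and 36.7% of the 7734. Control 1 was the lowest control in 27 of the 56 (48.2%) and in 25.7% of the 7734.

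The 56 genes also varied more within each group than the 7734. In controls the 56 lay lower, with library medians of 3.49 to 5.56 FPKM against 11.4 to 13.4 FPKM. Their control spread was thus not compared at a like level. The highest control was a median of 2.24 times the lowest in the 56 and 1.53 times in the 7734. With cadmium the medians were 2.38 and 1.497 times. The cadmium libraries spread over 10-fold in 9 of the 56 (16.1%), against 1.86% of the 7734, and the controls in 3 (5.36%), against 3.93%. All 9 were among the 11 genes high in cadmium 1. Of those 11, 7 reached the mean of 5 FPKM only through cadmium 1, so the choice of genes sets part of that share. The rule sets a bound between the groups and none within them, and 1 high library can bring a gene to the mean of 5 FPKM. These medians and shares therefore describe the 56 and were not tested.

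In the fit across all genes, limma's moderated test on log2(FPKM + 1) with Benjamini-Hochberg adjustment over 19862 genes, 5 of the 56 passed an adjusted p of 0.05, where 0.292% of all tested genes passed as higher with cadmium. Since this contrast chose the genes, nothing is read from that count. All 56 passed the filter on low values, at least 1 FPKM in 3 libraries, and in 7 of them no control reached that level. Over the 56 genes the adjusted p (limma) ran from 0.00722 to 0.532. The fitted log2 differences were 1.10 to 5.79, with a median of 2.20, against a median of 0.11 over all tested genes, which was -0.03 after upper-quartile and 0.01 after median-of-ratios scaling.

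Of the 5 genes that passed, 3 were among the 14 with even cadmium libraries, 1 was among the 8 low in cadmium 1 and 1 among the remaining 23. TR694_c0_g1 was higher by 4.59 ± 0.31 (SE) on the log2(FPKM + 1) scale (limma, adjusted p = 0.00722). The 4 others lay at ratios of means of 4.06 to 7.52. One of them read 9.09, 8.96 and 6.62 FPKM in controls and 30.4, 35.0 and 34.7 FPKM with cadmium (limma, adjusted p = 0.023). Of the 11 genes high in cadmium 1, 0 passed in limma, and TR101_c0_g1, higher by 4.89 ± 1.30 (SE), had an adjusted p of 0.296. The sets were divided by how the cadmium libraries spread, and that spread is part of limma's error. How the calls fall over the sets therefore follows in large part from the division.

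Leaving out 1 library lowered the limma calls, among the 56 as over all 19862 genes. Over all genes, in either direction, calls fell from 71 to 34, 23 and 32 without control 1, 2 or 3. Without cadmium 1, 2 or 3 they fell to 43, 25 and 10. The loss was thus not particular to the 56. In limma, 0 of the 56 passed without control 2 or without cadmium 3. The number was 1 without control 1, 1 without cadmium 2, 2 without cadmium 1 and 3 without control 3. Of the 5 genes, 1 was among the 2 passing without cadmium 1 and 2 were among the 3 passing without control 3. TR694_c0_g1 lost its call without control 2 (limma, adjusted p = 0.0504) and without cadmium 3 (0.0647), with log2 differences of 4.34 to 4.85 over the 6 fits. TR101_c0_g1 went from a log2 difference of 4.89 to 3.32 without cadmium 1, and its SE from 1.30 to 0.31 (limma, adjusted p = 0.0581).

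The gene IDs carry the assembly's own grouping, which the rule did not use. They have the form given by the Trinity de novo assembler, with a TR number, a c number and a g number. Genes with the same TR and c numbers are called a component here. Genes with the same TR number, whatever their c number, are called a TR group. The 56 genes came from 56 different TR groups, so 0 shared a TR group or a component with another of the 56. Of the 7734 genes, 38.5% shared a TR group with another of the 7734 and 9.78% a component. Such a share depends on how many genes are taken, so the counts are not compared further.

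For 20 of the 56 genes the same TR group held other genes with a mean of at least 5 FPKM above 0 in all libraries. These were 63 genes in all, of which 21 were in 1 TR group. Their median ratio of cadmium to control means was 1.12. Every cadmium library was above every control in 14 of the 63 (22.2%), against 14.2% of the 7952 genes of that level, and every control above every cadmium library in 4. Of the 14, 5 were in the TR group of 21, and 2 others reached the mean of 5 FPKM only through cadmium 1. The 7952 include the 56 and the 63 do not, so the shares are not closely comparable. A gap of 2 or more was seen in 1, a gene kept out of the 56 by its level. It shares a TR group, but not a component, with the fourth most abundant of the 56. It read 2878, 2435 and 3046 FPKM in controls and 25354, 56240 and 40517 FPKM with cadmium. Both genes had cadmium 2 highest and cadmium 1 lowest of the cadmium libraries. The abundant one stood at 62.8 to 174 times the other in controls and 132 to 193 times with cadmium.

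Genes of one component could differ in direction. The 16th most abundant of the 56 read 12.1, 22.1 and 5.51 FPKM in controls and 67.0, 47.5 and 56.3 FPKM with cadmium (limma, adjusted p = 0.191). An abundant gene of its component read 4097, 4509 and 3843 FPKM in controls and 1842, 2063 and 2021 FPKM with cadmium. Every cadmium library was below every control (limma, adjusted p = 0.129). Among the 63 genes, 4 were in a TR group that held one of the 11. Of these 4, 2 had cadmium 1 at least 3 times both other cadmium libraries. Both reached the mean of 5 FPKM only through cadmium 1, so their shape is part of how they were chosen. One of these, in the TR group of TR101_c0_g1, read 1.23, 0.94 and 1.01 FPKM in controls and 22.7, 3.5 and 2.24 FPKM with cadmium. The other read 0.37, 0.6 and 0.37 FPKM in controls and 28.3, 0.8 and 1.96 FPKM with cadmium. Over all 63 genes cadmium 1 was at least 3 times both others in 3. The third read 18.05, 51.4 and 27.5 FPKM in controls and 49.6, 15.6 and 6.81 FPKM with cadmium. Its cadmium 2 and cadmium 3 were below every control, and its cadmium 1 was below control 2.

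Genes on either side of the rule's bounds had close values. The gene just inside the bound of 2 times read 0.56, 3.74 and 10.7 FPKM in controls and 21.5, 98.6 and 48.6 FPKM with cadmium, a gap of 2.02. The gene just outside read 3.04, 2.49 and 2.44 FPKM in controls and 11.7, 13.8 and 6.05 FPKM with cadmium, a gap of 1.99. The next inside had gaps of 2.02 and 2.05, and the next outside 1.98 and 1.95. The controls of the first gene outside lay closer together than those of the first gene inside. On the side of level, 72 genes above 0 in all libraries had the gap but a mean below 5 FPKM, the nearest at 4.94 FPKM, and the lowest of the 56 had a mean of 5.19 FPKM.

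At the upper end, 2 genes with the gap had a mean of 1000 FPKM or more. One is the abundant gene described above, and the other read 2245, 3168 and 3489 FPKM in controls and 13103, 15906 and 23275 FPKM with cadmium. No gene with the gap lay between the highest of the 56, at 471 FPKM, and these. A further 53 genes in the range of level met the bound of 2 times but were listed at 0 in at least 1 control, 27 of them in all 3, and are not among the 56. The genes described here are therefore the part of the higher genes that had a measured value in every library.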

How the data were processed

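The authors deposited 1 table of FPKM values with 2 decimals for 57303 assembled genes, with a column for each of the 6 libraries named as its title. Hepatopancreas RNA was isolated with TRIzol reagent for Illumina libraries, per the labels' protocols. How the authors assembled the transcripts and computed FPKM is not given in the sources used here. Library depth is unknown. That the IDs follow Trinity's form was read from the IDs. The values were used as deposited, and the rule, ranks and summaries were computed in Python 3.11.15 with pandas 2.3.3, numpy 2.4.6 and matplotlib 3.10.9.

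The fit across genes was limma 3.58.1 in R 4.3.3 (lmFit, eBayes with a mean-variance trend, no covariate) on log2(FPKM + 1), for genes of at least 1 FPKM in at least 3 of the 6 libraries, two-sided with Benjamini-Hochberg adjustment at 0.05. A fold on this scale understates the change of low genes. Fits without a library used the same genes. The worth of 1 fragment in each library, where it was 0.5 FPKM or more, was taken from the commonest ratio to control 1 among genes above 0 in at most 4 libraries. The genes and the rules for describing them were chosen with earlier results of these data known. By ID the text names the 2 genes with the largest gap. Described by rank are the 5 genes highest in mean FPKM, the 5 with the largest gap and the genes nearest to the bounds. The examples of TR groups and components, the division into 4 sets and the further examples of each set were chosen after their values were seen. The 6 named lists of genes and the cell type markers could be matched to no gene.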

Additional observations from a re-analysis of the deposited data

How the results depend on the processing

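The number of genes meeting the rule was 56. It was 146 with a bound of 1.5 times, 24 with 3 times and 94 with a mean of at least 1 FPKM. It was 44 with a mean of at least 10 FPKM, 39 with either scaling and 56 without genes of few fragments. With 1 library left out, which removes a condition, it ran from 75 to 179: 101, 166 and 179 without control 1, 2 or 3 and 75, 109 and 90 without cadmium 1, 2 or 3. Between 47 (without cadmium 1) and 56 of the 56 were among them.

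Of the 56 genes, 5 passed limma's threshold. With a pseudocount of 0.1, 3 passed, with no filter on low values 1, with upper-quartile or median-of-ratios scaling 2 each and with no mean-variance trend 9. Over all genes tested, these settings gave 67, 27, 59, 58 and 134 calls in the same order, against 71 in the main fit. Without 1 library 0 to 3 of the 56 passed, where 10 to 43 passed over all genes. With the replicate number as a block 0 of the 56 passed (limma), and 1 of all genes tested. In that fit TR694_c0_g1 lost its call (limma, adjusted p = 0.139). Same-numbered libraries deviated together only weakly (correlations of 0.0144 to 0.0369 across genes), so the numbers are not taken to pair them, and the cause of the lost calls was not tested. All 56 fitted differences were above 0 in each of these fits, as the choice of genes sets. With no fragment numbers, the precision of control values under 1 FPKM is unknown.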
